A study of Homo sapiens with 6 samples.

Results

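The genes LGR4, LGR5, ASCL2, OLFM4, SOX9, LRIG1, BMI1, MSI1, PROM1 and CD44 are described here as colon stem cell marker genes. They are 10 of the 24462 gene symbols in the bulk RNA-seq files, chosen by name because each is used to mark or to sort stem cells of the colon or of colon tumors. These genes and the lists set beside them were chosen with earlier results of these data known. Their counts are compared between 3 libraries of 1CT, a line of human colon epithelial cells immortalized with hTERT that the labels call HCEC 1CT_WT, and 3 libraries of 1CT-A, its APC depleted version that the labels call HCEC 1CT_APC KD. The paper states the hTERT manipulation for 1CT. TERT has 0 counts in each 1CT-A library, so these data do not show the introduced gene there. Both cell lines grow untreated in the same medium with 20 ng/ml epidermal growth factor and 2% FBS, and are labelled as colonic epithelial progenitor cells. How APC was depleted in 1CT-A, whether 1CT-A is 1 clone and whether the 1CT libraries carry a control vector are not given in the sources used here. The labels do not say whether the 3 libraries of a line come from separate cultures, so the p values measure only the spread between these libraries, which may be technical.

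In the colon crypt, stem cells at the base divide under Wnt signals, and their daughters differentiate as they move up. R-spondins bind LGR receptors and protect the Wnt receptors from the ligases RNF43 and ZNRF3, and β-catenin, which the APC protein helps to destroy, then switches on genes such as LGR5, ASCL2 and AXIN2. Loss of APC is the usual first step of colorectal tumors, in which LGR5 and ASCL2 are commonly high, and the study measures LGR5 and ASCL2 as stemness markers. It does so by qRT-PCR in 1CT-A and reports that both fall after knockdown of CCDC85B. That assay is another method, and its values are not set beside the counts here. The question that the comparison addresses is therefore which of these marker genes are expressed in the 1CT model and which differ when APC is depleted.

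Promoter sequences are shown for 4 of the genes, which are the pair that differs between the cell lines (BMI1 and LGR4), the gene with the most counts of the list (CD44) and the gene without a single count (OLFM4). Each is the stretch of 250 bases just before a RefSeq transcript start, written 5′ to 3′ on the strand of the gene in GRCh38.p14, with capitals for a match to 1 of 3 motifs. The motifs, searched on both strands, are the TCF/LEF motif (CTTTGAA or CTTTGAT or CTTTGTA or CTTTGTT), through which β-catenin acts, the E-box CACGTG, which MYC and related factors bind, and the E2F motif (TTTCCCGC or TTTCGCGC or TTTGCCGC or TTTGGCGC).
For BMI1, which has more than 1 entry, the most upstream is shown.
BMI1 (chr10:22320849-22321098, plus strand): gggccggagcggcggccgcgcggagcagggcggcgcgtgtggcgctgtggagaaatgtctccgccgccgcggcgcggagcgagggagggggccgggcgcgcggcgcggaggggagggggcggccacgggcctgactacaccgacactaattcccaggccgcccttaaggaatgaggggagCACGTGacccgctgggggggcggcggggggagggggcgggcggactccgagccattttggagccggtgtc
LGR4 (chr11:27472791-27473040, minus strand): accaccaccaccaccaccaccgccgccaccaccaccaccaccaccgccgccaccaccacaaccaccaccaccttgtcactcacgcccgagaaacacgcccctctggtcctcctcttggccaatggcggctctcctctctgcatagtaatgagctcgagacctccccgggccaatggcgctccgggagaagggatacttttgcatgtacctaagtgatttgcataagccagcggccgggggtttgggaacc
CD44 (chr11:35138921-35139170, plus strand): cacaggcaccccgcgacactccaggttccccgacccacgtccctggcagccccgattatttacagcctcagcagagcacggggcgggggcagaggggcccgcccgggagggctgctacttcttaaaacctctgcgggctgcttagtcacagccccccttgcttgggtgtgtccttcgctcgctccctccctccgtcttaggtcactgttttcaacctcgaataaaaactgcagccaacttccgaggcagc
OLFM4 (chr13:53028563-53028812, plus strand): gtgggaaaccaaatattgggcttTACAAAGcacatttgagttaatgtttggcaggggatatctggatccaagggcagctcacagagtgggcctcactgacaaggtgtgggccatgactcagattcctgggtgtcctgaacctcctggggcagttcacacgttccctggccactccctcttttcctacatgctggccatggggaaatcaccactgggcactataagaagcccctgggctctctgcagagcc
The BMI1 sequence holds 1 E-box, which begins 70 bases before the transcript start, and 6.34% of the 35116 RefSeq promoter entries hold that motif in the same window. The other BMI1 entry, which lies downstream and is not shown, holds no match to any of the motifs. The OLFM4 sequence holds 1 TCF/LEF match, which begins 227 bases before the start, and 12% of the entries hold at least 1. No motif is found in the windows of LGR4 and CD44, and none of the 4 windows has an E2F match, which is found in 2.79% of the entries. CpG dinucleotides number 35 in the BMI1 window, 14 in that of LGR4, 15 in that of CD44 and 1 in that of OLFM4, where the median entry has 11. Such matches are letters in a reference sequence and no measurement of binding in these cells.

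The libraries of 1CT hold 7788679 to 8452258 counts and those of 1CT-A hold 11158108 to 12602988. Levels are given as CPM, the counts of a gene per 1000000 counts of its library. The libraries are made from the 3′ ends of transcripts, so a count does not scale with transcript length, and the levels of different genes are nevertheless not ranked here. APC, the depleted gene, ranges from 43.8 to 49.3 CPM among 1CT libraries and from 30.02 to 34.4 CPM among 1CT-A libraries, without overlap (log2 fold change -0.58, edgeR adjusted p = 0.000176). Only some of the listed epithelial markers bear out the epithelial label. EPCAM, VIL1 and CLDN3 have 0 counts in all 6 libraries, CDH1 has at most 4 counts in a library, and 15 of 17 markers of differentiated colon cells do not reach 3 counts in any library. Of 12 epithelial markers only KRT18, KRT19 and CLDN7 could be tested. CLDN7 averages 26.6 CPM in 1CT and 20.6 CPM in 1CT-A, and KRT18 averages 11.2 CPM and 5.06 CPM. KRT19 averages 3.33 CPM in 1CT and has 0 counts in 1CT-A. The list of 12 sums to between 41.2 and 45.2 CPM in 1CT and between 23.6 and 30.8 CPM in 1CT-A. The 16 mesenchymal markers, led by the fibronectin gene FN1, all have enough counts for the test and sum to between 45387 and 53499 CPM in 1CT and between 22552 and 23912 CPM in 1CT-A. Most of that sum is FN1, whose mean is 44241 ± 3619 CPM (SD, n = 3) for 1CT libraries beside 18128 ± 829 CPM (SD, n = 3) for 1CT-A libraries. By gene, 5 mesenchymal markers are higher, 7 lower and 4 not called in 1CT-A, with COL3A1 (log2 fold change 2.37) and TWIST1 (1.87) among the higher ones. Over all genes tested, 25.0% are higher and 26.0% lower. The lower call of VIM is lost in 7 of 15 alternative fits, and the higher call of DCN in 2. Endothelial and blood cell markers are close to 0 except CD68. The part of these cell type markers in the results below was not tested, and in bulk samples fewer cells of a type and less RNA per cell cannot be told apart.

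Only 4 of the 10 stem cell marker genes are visible in every library of both cell lines, namely LGR4, LRIG1, BMI1 and CD44. A gene is called visible from 3 counts upward, which is 0.355 to 0.385 CPM in a 1CT library and 0.238 to 0.269 CPM in a 1CT-A library. MSI1 reaches 3 counts in 1 library of 1CT, and LGR5, ASCL2, OLFM4, SOX9 and PROM1 reach it in none. Over all symbols in the files, 34.8% do not reach 3 counts in any library. The 4 visible genes also pass the filter on low counts and enter edgeR's quasi-likelihood test between the cell lines, in which p values are adjusted over all 12514 genes tested. With an adjusted p under 0.05 as the limit, 1CT-A has more BMI1 and less LGR4, and LRIG1 and CD44 are not called. Across all genes tested 51.0% are called, with 25.0% higher and 26.0% lower in 1CT-A, so 2 calls among 4 genes do not set the marker genes apart from other genes. Their median log2 fold change of -0.015 lies beside -0.007 over all genes tested. None of the 4 genes passes a limit of 2 on the fold change together with one of 0.01 on the unadjusted p, but LGR4 misses it narrowly, at 1.9995-fold lower with an unadjusted edgeR p of 0.00812. LGR4 does pass that limit with upper quartile normalization (log2 fold change -1.05), with at least 10 counts in every library (-1.02) and without 1CT replicate 3 (-1.23).

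**Figure D1:**
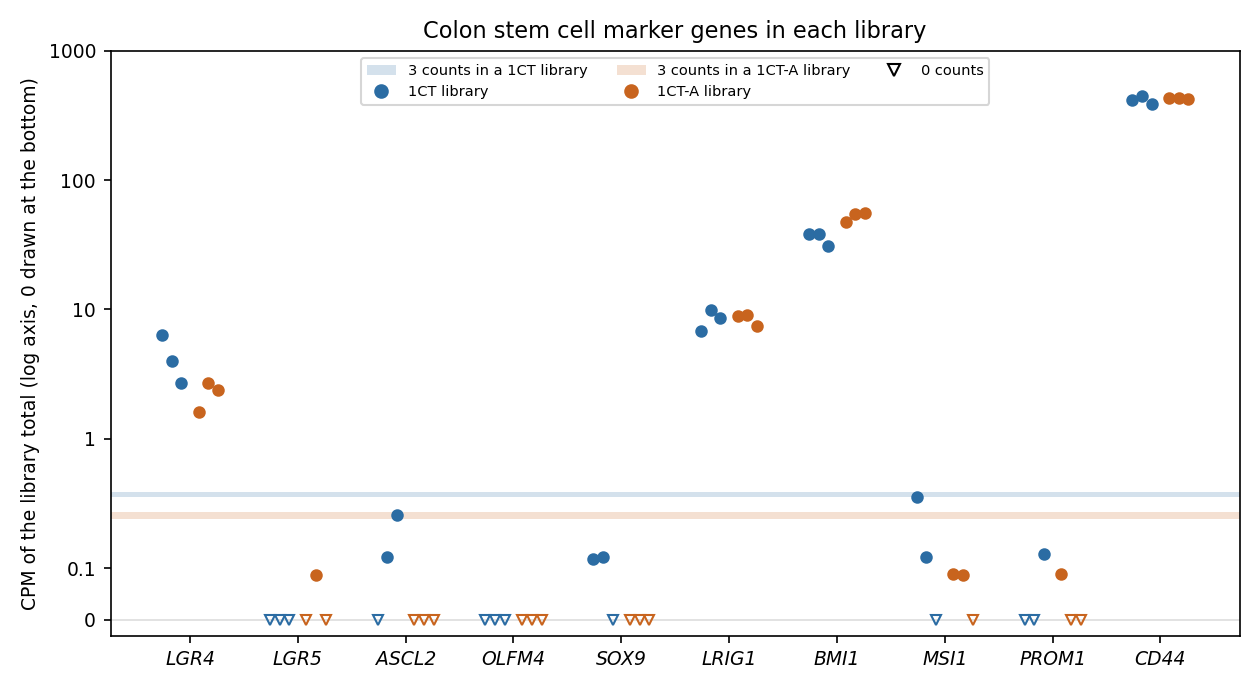
Levels of the 10 colon stem cell marker genes in each library, as CPM of the library total on a log axis, with open triangles at the bottom for 0 counts. Blue points are 1CT libraries, orange points are 1CT-A libraries, and the bands mark the level of 3 counts. LGR4, LRIG1, BMI1 and CD44 lie above the bands in all 6 libraries, and the other genes lie at or under them.

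Of the R-spondin receptors only LGR4 is visible in these cells, and it falls in 1CT-A. LGR5, the marker of the dividing crypt base stem cells, has 0 counts in all 3 libraries of 1CT and 0, 1 and 0 counts in those of 1CT-A. LGR6, another receptor of the family, has 0 counts in every library. LGR4, the broadly expressed receptor of the family, has 54, 33 and 21 counts in 1CT and 18, 31 and 30 counts in 1CT-A, which is 6.39, 3.98 and 2.70 CPM against 1.61, 2.72 and 2.38 CPM. The 3 libraries of 1CT differ more among themselves than counting noise alone would give, their chi-square being 6.53 per degree of freedom beside 1.62 in 1CT-A. The groups overlap narrowly, since the lowest 1CT library lies just under the highest 1CT-A library. The mean of 1CT is 4.36 ± 1.87 CPM (SD, n = 3), and that of 1CT-A is 2.24 ± 0.567 CPM (SD, n = 3). This is a log2 fold change of -1.0 with a 95% interval from -1.69 to -0.31 (edgeR's quasi-likelihood test, Benjamini-Hochberg adjusted p = 0.0192), and the exact two-sided permutation test of the CPM values gives p = 0.2, where 3 libraries against 3 cannot go below 0.1. The call rests on single libraries, because without 1CT replicate 1 the log2 fold change is -0.62 (edgeR adjusted p = 0.139) and without 1CT-A replicate 1 it is -0.82 (edgeR adjusted p = 0.0738). In GRCh38, LGR4 spans chromosome 11 from 27365961 to 27472790 on the minus strand, and LGR5 spans chromosome 12 from 71439798 to 71586310 on the plus strand.

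Of the 7 other genes of the R-spondin system, only RSPO1 and ZNRF3 have enough counts to be tested. ZNRF3, a ligase that removes Wnt receptors and is itself switched on by Wnt signals, rises from 15.8 ± 3.90 CPM (SD, n = 3) to 23.3 ± 0.543 CPM in 1CT-A (log2 fold change 0.52, edgeR adjusted p = 0.0110), without overlap between the cell lines. Its partner RNF43 has at most 3 counts in a library. RSPO1, a ligand of the LGR receptors, is at 2.61 CPM in 1CT and 3.14 CPM in 1CT-A on average (log2 fold change 0.22, edgeR adjusted p = 0.553). RSPO3 has 0 counts in all libraries, and RSPO2 and RSPO4 have at most 6 and 2.

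**Figure D2:**
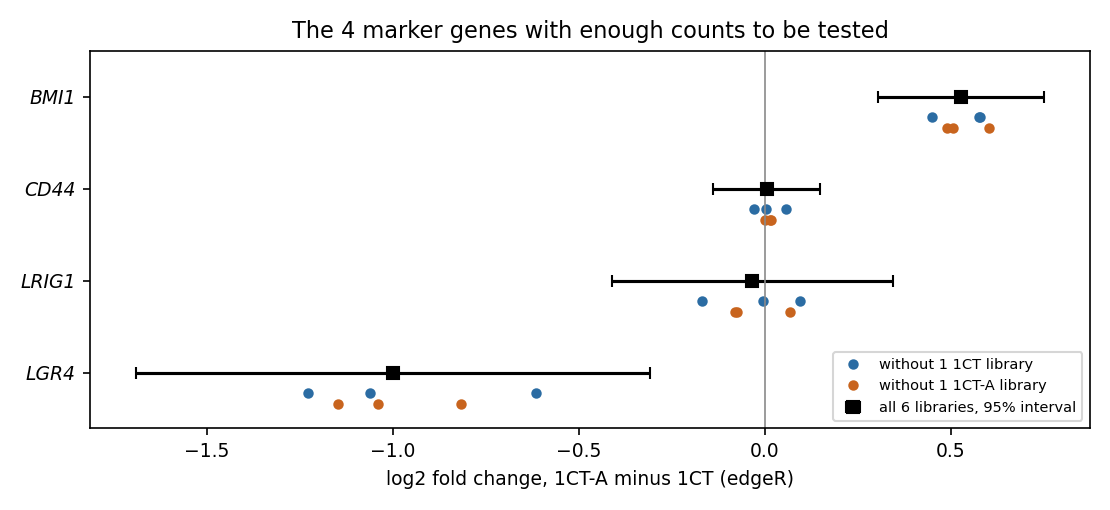
Change from 1CT to 1CT-A on the log2 scale for the 4 marker genes with enough counts to be tested. Squares with bars are the estimates from all 6 libraries with 95% intervals, and points are estimates with 1 library left out (blue for 1CT, orange for 1CT-A). BMI1 stays above 0 and LGR4 below 0 in each of them, while CD44 and LRIG1 scatter around 0.

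The crypt base markers ASCL2, OLFM4 and SOX9 are not visible in either cell line. ASCL2, a Wnt-switched transcription factor that keeps crypt base cells in the stem cell state, has 0, 1 and 2 counts in 1CT and 0 counts in each 1CT-A library (exact two-sided permutation test, p = 0.4). OLFM4, a secreted glycoprotein of human crypt base cells, has 0 counts in all 6 libraries. SOX9, a transcription factor of crypt progenitors, has 1, 1 and 0 counts in 1CT and 0 counts in each 1CT-A library (exact two-sided permutation test, p = 0.4). With counts in so few libraries, 0.4 is the smallest p that this test can give for ASCL2 or SOX9. It can therefore neither show nor exclude a difference. No relative level is given for these genes, since a difference below 3 counts is not detectable at this depth. The limit covers counting error only. SOX9-AS1, beside SOX9 on chromosome 17, also has 0 counts throughout. ASCL2 spans chromosome 11 from 2268498 to 2270588 (minus strand), OLFM4 spans chromosome 13 from 53028813 to 53052057 (plus strand), and SOX9 spans chromosome 17 from 72121020 to 72126416 (plus strand).

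Other SOX factors are counted where SOX9 is not. SOX4, which is also active in crypts, has 497, 538 and 533 counts in 1CT and 705, 730 and 793 counts in 1CT-A and is not called (log2 fold change -0.054, edgeR adjusted p = 0.618). SOX12 rises from 99.4 CPM to 175 CPM (log2 fold change 0.78, edgeR adjusted p = 1.25e-05). SOX8, a close relative of SOX9, has 10, 5 and 20 counts in 1CT and 0 counts in each 1CT-A library, which is at least 5.40-fold lower when the mean of 1CT is set against 3 counts in the 1CT-A library with the fewest total counts. Without 1CT replicate 3 that bound is 3.32-fold. SOX10, the remaining relative of that class, has 0 counts.

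Among 15 further crypt base or Wnt-responsive genes, 11 have enough counts, of which 6 are higher and 3 lower in 1CT-A, with a median log2 fold change of 0.82 beside -0.007 over all genes tested, of which 25.0% are higher and 26.0% lower. The list was chosen with earlier results of these data known, so these values describe it and do not test it. The direction is not the same for genes that share the crypt base with ASCL2 and OLFM4. TNFRSF19, a receptor also called TROY, has 4, 3 and 2 counts in 1CT and 33, 50 and 65 in 1CT-A (log2 fold change 3.43, edgeR adjusted p = 1.34e-05). CDCA7 (log2 fold change 1.98) and the RNA-binding protein gene MEX3A (1.28) are also higher, while EPHB2 (-0.78), the kinase gene CDK6 (-1.02) and the ion transporter gene SLC12A2 (-0.60) are lower, each with an edgeR adjusted p of at most 0.00163. MYC, a Wnt target that drives proliferation, rises from 7.2 ± 2.13 CPM (SD, n = 3) to 18.1 ± 3.04 CPM (log2 fold change 1.29, edgeR adjusted p = 0.000119), and the transcription factor gene ETS2 rises too (1.01, edgeR adjusted p = 2.25e-06). The rise of PTPRO (0.63, edgeR adjusted p = 0.0261) is the least firm, since it is lost in 4 of 15 alternatives. Among direct Wnt targets, AXIN2 is too low for the test, with 1, 1 and 1 counts in 1CT against 9, 1 and 5 in 1CT-A, and SP5 and NKD1 have at most 2 counts in a library. SMOC2 has 0 counts.

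LRIG1, a membrane protein that restrains epidermal growth factor receptors and marks slowly dividing crypt cells, is visible and not called. It is at 6.86, 9.90 and 8.60 CPM in 1CT and at 8.96, 9.13 and 7.38 CPM in 1CT-A, and the groups overlap over most of their range. The log2 fold change is -0.034 with a 95% interval from -0.41 to 0.34 (edgeR adjusted p = 0.884), so a difference within that range is not detectable here, and its sign changes with the scaling. LRIG1 spans chromosome 3 from 66378797 to 66501263 on the minus strand. Exons of SLC25A26 on the opposite strand share 2669 bases with those of LRIG1, the 3′ end of LRIG1 included, and the strand setting of the counting is not given in the sources used here. Reads of the pair can therefore not be told apart with certainty, and SLC25A26 has 272 to 316 counts in 1CT and 358 to 374 counts in 1CT-A, more than LRIG1 in every library. Of the paralogs of LRIG1, LRIG3 rises from 0.766 ± 0.330 CPM (SD, n = 3) to 2.62 ± 0.0926 CPM (log2 fold change 1.71, edgeR adjusted p = 0.00128) and LRIG2 is not called (log2 fold change -0.14). The receptor genes EGFR (-0.52, edgeR adjusted p = 0.00165) and MET (-0.56, edgeR adjusted p = 4.55e-05), whose proteins LRIG1 restrains, fall in 1CT-A, ERBB2 is not called (-0.0018), and ERBB3 has 0 counts.

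BMI1, a subunit of Polycomb repressive complex 1 that keeps the INK4 locus silent and was proposed as a marker of reserve stem cells, is the marker gene with a higher level in 1CT-A. It has 321, 315 and 239 counts in 1CT and 525, 627 and 706 counts in 1CT-A, which is 38.0, 38.0 and 30.7 CPM against 47.1, 55.0 and 56.0 CPM. Every 1CT-A library lies above every 1CT library, and the lowest value belongs to 1CT replicate 3, which is also the lowest 1CT library for LGR4 and CD44. The means are 35.6 ± 4.23 CPM (SD, n = 3) and 52.7 ± 4.92 CPM (SD, n = 3), a fold change of 1.44 (log2 fold change 0.53, 95% interval 0.30 to 0.75, edgeR adjusted p = 0.000894). The exact two-sided permutation test gives p = 0.1, the smallest that this design allows. On leaving out any single library the log2 fold change stays between 0.45 and 0.60 and the gene stays called.

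BMI1 spans chromosome 10 from 22321099 to 22331484 on the plus strand, just downstream of COMMD3 on the same strand, and the annotation also holds a readthrough gene, COMMD3-BMI1, which shares 1000 exon bases with BMI1. COMMD3-BMI1 has 0 counts in every library, so no reads were assigned to the joint transcript. Reads in the shared exons could have been counted to BMI1 or left out, so the 0 does not show that this transcript is absent. COMMD3, which serves in endosomal sorting, is not called. Its mean is 38.4 ± 2.16 CPM (SD, n = 3) for 1CT libraries beside 37.1 ± 1.59 CPM (SD, n = 3) for 1CT-A libraries (log2 fold change -0.091, edgeR adjusted p = 0.413). The ratio of BMI1 to COMMD3 counts, which does not depend on library size, is 0.941, 1.05 and 0.789 in 1CT and 1.33, 1.47 and 1.46 in 1CT-A. On the log2 scale the ratio is higher by 0.62 in 1CT-A (exact two-sided permutation test, p = 0.1, the smallest possible), so the neighbours on chromosome 10 differ unequally between the cell lines.

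**Figure D3:**
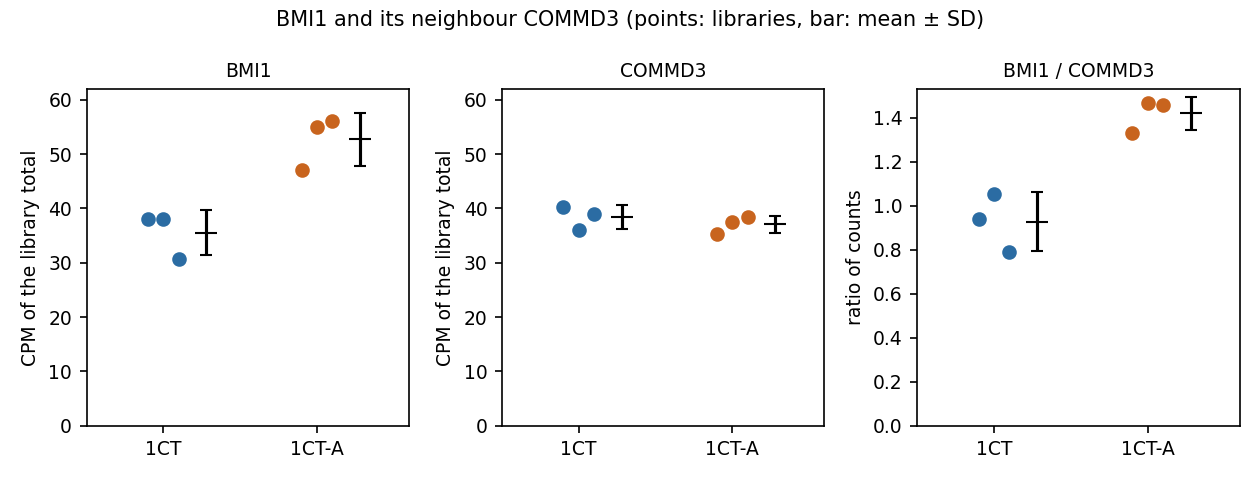
CPM of BMI1 and of its neighbour COMMD3, and the ratio of their counts, in each library of 1CT (blue) and 1CT-A (orange), with the mean and SD beside the points. BMI1 and the ratio are higher in all 3 libraries of 1CT-A, and COMMD3 overlaps between the cell lines.

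The other subunits of Polycomb repressive complex 1, in which BMI1 works with the ligases RING1 and RNF2, all have enough counts. Of these 15 genes 7 are higher in 1CT-A, 1 is lower and 7 are not called, with a median log2 fold change of 0.19. Of all genes tested 51.0% are called, with 25.0% higher and 26.0% lower. This list too was chosen with earlier results known, so the counts are no test of it. The chromatin-reading CBX subunits differ most and in both directions. CBX2 rises from 2.13 ± 0.392 CPM (SD, n = 3) to 8.80 ± 0.784 CPM (log2 fold change 2.01, edgeR adjusted p = 5.93e-06) and CBX8 from 3.68 ± 1.08 CPM (SD, n = 3) to 6.84 ± 0.258 CPM (log2 fold change 0.85, edgeR adjusted p = 0.00589). CBX7 falls from 19.0 ± 1.63 CPM (SD, n = 3) to 9.40 ± 0.577 CPM (log2 fold change -1.05, edgeR adjusted p = 2.32e-05). PCGF2, the closest paralog of BMI1, rises by 0.29 on the log2 scale (edgeR adjusted p = 0.00852). The catalytic subunits are not called, with RING1 at -0.013 and RNF2 at 0.36 (edgeR adjusted p = 0.938 and 0.0919), although RNF2 is called without the filter on low counts (edgeR adjusted p = 0.0305). The calls of PCGF6 and PHC2 are the least firm, lost in 5 and 9 of 15 alternatives, and either is lost when 1CT replicate 2, 1CT-A replicate 1 or 1CT-A replicate 2 is left out, with edgeR adjusted p up to 0.129 and 0.166 over the alternatives. CDKN2A, the classic target that BMI1 represses, is at 169 CPM in 1CT and 183 CPM in 1CT-A and is not called (log2 fold change 0.078, edgeR adjusted p = 0.403). CDKN2B of the same locus rises by 0.36 on the log2 scale (edgeR adjusted p = 0.0197), a call that is lost without 1CT replicate 2, 1CT-A replicate 2 or 1CT-A replicate 3 (edgeR adjusted p = 0.0564 to 0.0596) and with DESeq2 (adjusted p = 0.0585).

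**Figure D4:**
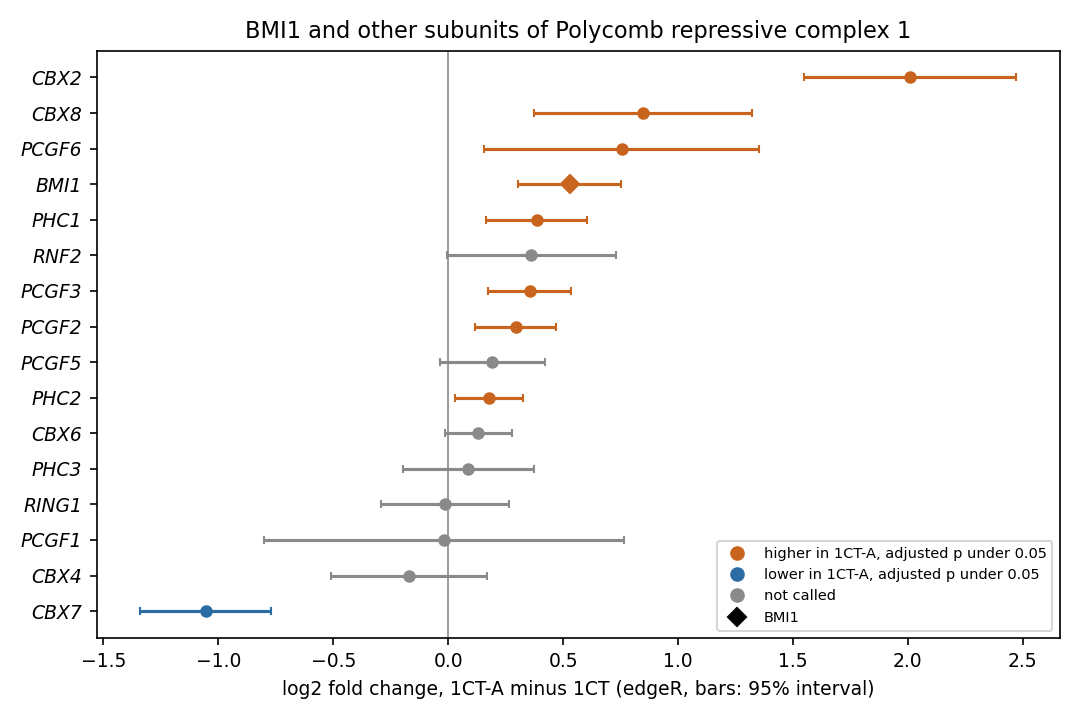
Change from 1CT to 1CT-A on the log2 scale with 95% intervals for BMI1 (diamond) and 15 other subunits of Polycomb repressive complex 1. Orange marks genes higher and blue genes lower in 1CT-A at an edgeR adjusted p under 0.05, and grey marks genes not called. CBX2 lies farthest to the right at 2.01 and CBX7 farthest to the left at -1.05.

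MSI1, an RNA-binding protein that holds back translation of NUMB and so favours Notch signaling in crypt progenitors, is at the edge of what the libraries can show. It has 3, 1 and 0 counts in 1CT and 1, 1 and 0 counts in 1CT-A (exact two-sided permutation test, p = 0.5). MSI1 spans chromosome 12 from 120341330 to 120369164 on the minus strand. Its paralog MSI2, which binds similar RNA sites, is visible in every library, at 1.54, 1.69 and 1.28 CPM in 1CT and 2.51, 4.39 and 3.73 CPM in 1CT-A. MSI2 does not overlap between the cell lines (log2 fold change 1.19, edgeR adjusted p = 0.00522). NUMB falls from 48.9 ± 2.03 CPM (SD, n = 3) to 39.2 ± 1.41 CPM (log2 fold change -0.36, edgeR adjusted p = 0.00268). Its paralog NUMBL goes the other way, from 141 to 167 CPM (log2 fold change 0.20, edgeR adjusted p = 0.0232). The NUMBL call is lost in 4 of 15 alternatives. Among the Notch genes NOTCH3 falls from 46, 45 and 35 counts to 0, 3 and 5 counts (log2 fold change -4.46, or -5.17 without 1CT-A replicate 3, edgeR adjusted p = 3.54e-06 with all libraries), whereas NOTCH1 and NOTCH2 are not called, and the Notch target HES1 has 8, 20 and 9 counts in 1CT and 3, 0 and 1 in 1CT-A, too few for the test.

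The surface markers PROM1 and CD44 are used together to sort colon cancer stem cells, and only CD44 is visible here. PROM1, a pentaspan membrane protein also known as CD133, has 0, 0 and 1 counts in 1CT and 1, 0 and 0 counts in 1CT-A, and its paralog PROM2 has 0 counts. CD44, the receptor for hyaluronan, has 3522, 3693 and 3014 counts in 1CT and 4803, 4897 and 5380 counts in 1CT-A. As CPM these are 417, 446 and 387 in 1CT and 430, 430 and 427 in 1CT-A, so that the 1CT-A values lie within the range of 1CT. The 1CT libraries spread more widely than counting noise, their chi-square being 16.7 per degree of freedom, and the 1CT-A libraries do not, at 0.102. The log2 fold change is 0.0045 with a 95% interval from -0.14 to 0.15 (edgeR adjusted p = 0.960), and its sign changes with the scaling. That interval is narrower than those of LGR4 and LRIG1. CD44 is spliced into standard and variant isoforms, and counts per gene from 3′ ends do not tell them apart. CD44 spans chromosome 11 from 35138882 to 35232402 (plus strand), and PROM1 spans chromosome 4 from 15963076 to 16084378 (minus strand).

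The genes around CD44 differ in single steps. Of 18 genes of hyaluronan metabolism, ligands, linkers, sheddases and splicing factors, 13 have enough counts, of which 3 are higher, 2 lower and 8 not called in 1CT-A, beside 51.0% called over all genes tested, and the fall of the linker gene MSN is lost in 8 of 15 alternatives. TNFAIP6, which modifies and binds hyaluronan, has 1, 3 and 0 counts in 1CT and 34, 43 and 40 counts in 1CT-A (log2 fold change 4.21, or 5.47 without 1CT replicate 2, edgeR adjusted p = 1.83e-05 with all libraries). ADAM10, a protease that sheds CD44 from the surface, rises from 39.6 ± 7.19 CPM (SD, n = 3) to 63.1 ± 1.86 CPM (log2 fold change 0.63, edgeR adjusted p = 0.000384). The linkers of CD44 to the actin cortex differ from each other, with EZR at a log2 fold change of -0.80 (edgeR adjusted p = 1.64e-05) and RDX at 0.41 (edgeR adjusted p = 0.000242). The hyaluronan synthase gene HAS2 is at 25.1 CPM in 1CT and 28.5 CPM in 1CT-A and is not called (edgeR adjusted p = 0.463), although it is called higher without 1CT replicate 1 (0.36 on the log2 scale, edgeR adjusted p = 0.0486), and HAS1 has at most 1 count in a library. ESRP1, a splicing factor that favours epithelial variant isoforms of CD44, has 1 count in all. Its paralog ESRP2 is visible in every library, at a mean of 14.8 CPM in 1CT and 13.5 CPM in 1CT-A. ESRP2 is not called (log2 fold change -0.17, edgeR adjusted p = 0.255).

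Other markers used to sort colon cancer stem cells beside CD44 and PROM1 also differ in whether they are visible. CD24 has 1, 31 and 8 counts in 1CT and 6, 10 and 6 counts in 1CT-A, too few for the test. ALCAM, known as CD166, falls from 358 ± 27.6 CPM (SD, n = 3) to 221 ± 4.25 CPM (log2 fold change -0.74, edgeR adjusted p = 2.49e-06), and the integrin gene ITGA6 falls too (log2 fold change -0.64, edgeR adjusted p = 0.000889). DPP4, known as CD26, rises from 4.06 ± 0.775 CPM (SD, n = 3) to 25.6 ± 3.91 CPM (log2 fold change 2.61, edgeR adjusted p = 9.46e-08), and PROCR by 0.95 (edgeR adjusted p = 6.95e-05). ALDH1A1 has 10, 450 and 45 counts in 1CT and 135, 222 and 199 counts in 1CT-A and is not called (log2 fold change -0.41, edgeR adjusted p = 0.655). Its direction rests on 1CT replicate 2, without which ALDH1A1 is higher in 1CT-A (2.17, edgeR adjusted p = 0.000503), and it also turns with limma-voom (1.05, adjusted p = 0.268) and with the replicate block (0.30, edgeR adjusted p = 0.656). Without the filter on low counts ALDH1A1 is called lower (-0.36, edgeR adjusted p = 0.0212). EPCAM, with which CD44 is commonly combined, has 0 counts in all libraries.

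**Figure D5:**
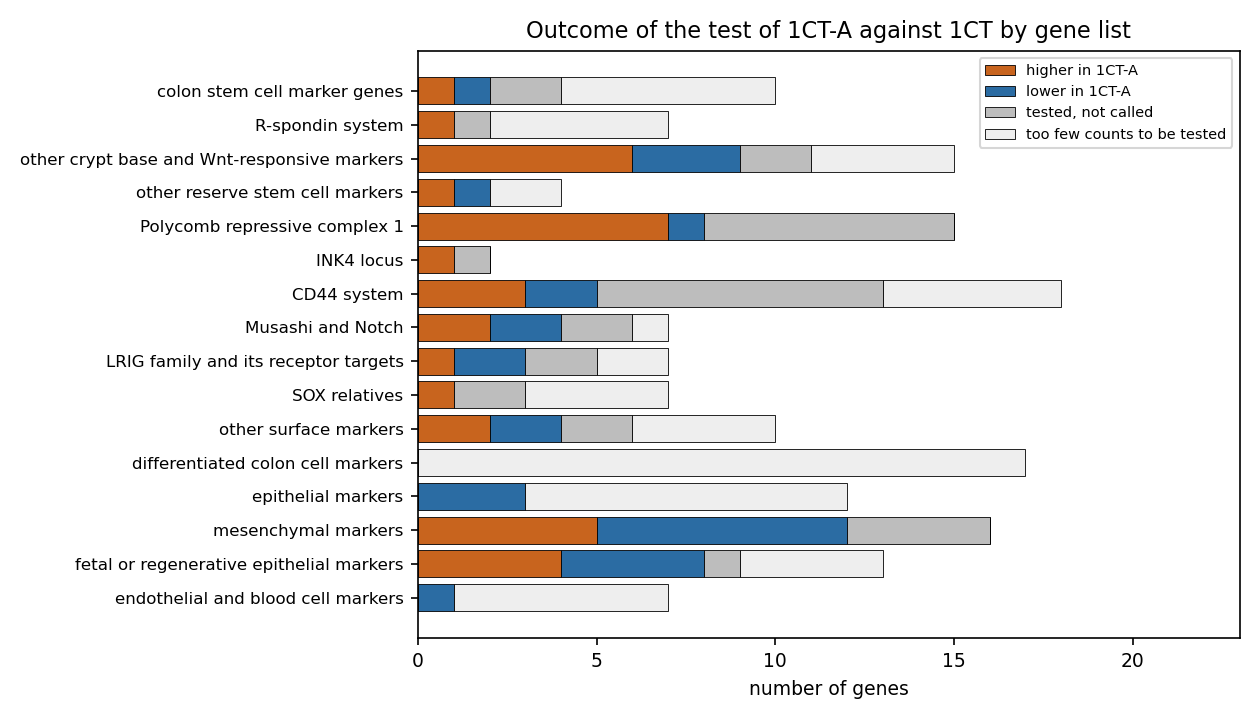
Number of genes per list that are higher in 1CT-A (orange), lower in 1CT-A (blue), tested but not called (grey) or too low to be tested (palest shade). Of the 10 colon stem cell marker genes 1 is higher, 1 is lower, 2 are not called and 6 are too low, and none of the 17 differentiated colon cell markers could be tested.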

How the data were processed

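Per the labels, QuantSeq 3′ libraries are made from 500 ng of total RNA of untreated cells, and the submitters' processing notes name Bowtie2, edgeR and the build hg19. The annotation, the read filters and the strand setting are not given in the sources used here. The authors deposited raw counts per gene symbol as whole numbers, 1 file per library, without normalization or pooling. Entries of a repeated symbol are summed (286 of 24462 symbols). CPM values are counts per 1000000 of each file's total. The test is edgeR 4.0.16 (R 4.3.3) with TMM factors from 0.976 to 1.02, filterByExpr set to 10 counts, a quasi-likelihood test without a replicate block, and Benjamini-Hochberg adjustment, called under 0.05. SE-based intervals are 95%. The test was run on simulated data in which all genes had the common dispersion of 0.00733. It recovered 68% of 1.5-fold and 89% of 2-fold changes and called 0.0246% of unchanged genes. This run does not cover genes that spread more widely, such as LGR4 and CD44 in 1CT. Alternatives use limma 3.58.1 and DESeq2 1.42.0 among others. The files hold no molecular identifiers, so the limit of 3 counts covers counting error only. Positions are from GENCODE 44 on GRCh38 and describe that annotation, not the counting on hg19. Promoter sequences are from RefSeq on GRCh38.p14, with entries matched by symbol for 6 of the 10 genes. All 10 genes and the genes of the pathway and cell type lists may be named. Members and lists were chosen with earlier results of these data known. CD44-AS1, LGR4-AS1 and BMI1P1 were listed as overlapping genes or copies and are not analysed here.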

Additional observations from a re-analysis of the deposited data

How the results depend on the processing

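BMI1 stayed higher in 1CT-A and called under all 15 alternative fits, with log2 fold changes from 0.45 to 0.60. LGR4 stayed lower under all 15 (-1.23 to -0.62) and lost its call under 2 of them, without 1CT replicate 1 and without 1CT-A replicate 1. The count of called marker genes was 2, with 1 to 2 on leaving out any single library, 1 at an adjusted p under 0.01 and 0 at a fold of at least 2 with an unadjusted p under 0.01. In alternatives chosen after seeing the data, that last count became 1, through LGR4, with upper quartile normalization, with at least 10 counts in every library and without 1CT replicate 3, and was 0 to 1 on leaving out single libraries. That threshold also took the count over all genes from 6388 to 1676, by its construction. The uncalled log2 fold change of CD44 turned to -0.051 with upper quartile normalization, to -0.012 with at least 10 counts in every library and to -0.030 without 1CT replicate 3. That of LRIG1 turned to 0.0032 with library size only, to 0.011 with no filter, to 0.095 without 1CT replicate 2 and to 0.067 without 1CT-A replicate 3. Leaving out single libraries gave -0.030 to 0.055 for CD44 and -0.17 to 0.095 for LRIG1. The number of visible genes was 4 at 1, 3 and 10 counts and without any 1 library. The cause of these changes was not tested.

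Whether replicate numbers shared by the cell lines mark pairs was not settled. The correlations of same-numbered libraries' deviations were -0.161, 0.22 and -0.139 over 8224 genes. Differently numbered libraries were not correlated for comparison, so these values cannot show whether pairs exist. With the replicate block 6091 genes were called, 6000 of them shared with the 6388 without it, 2 marker genes remained called, and the log2 fold changes were 0.53 for BMI1 (edgeR adjusted p = 0.00151) and -0.96 for LGR4 (edgeR adjusted p = 0.0271).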

Other observations

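Other genes proposed as reserve stem cell markers beside BMI1 and LRIG1 moved apart between the cell lines. HOPX, a homeodomain cofactor, rose from 7.10 CPM in 1CT to 19.1 CPM in 1CT-A (log2 fold change 1.38, edgeR adjusted p = 1.37e-05). TERT, the telomerase gene, had 31, 21 and 58 counts in 1CT and 0 counts in each 1CT-A library. This is at least 16.9-fold lower when the mean of 1CT is set against 3 counts in the 1CT-A library with the fewest total counts. Without 1CT replicate 3 that bound was 11.5-fold. The paper describes 1CT as carrying hTERT and 1CT-A as its APC depleted version, but the counts do not show TERT in 1CT-A. These 3′ counts do not tell the introduced gene from the cell's own, and whether 1CT-A still carries hTERT was not tested. DCLK1 had 0 counts in every library.

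Of 13 genes of fetal-like or repairing gut epithelium, 9 had enough counts, with 4 higher and 4 lower in 1CT-A, beside 25.0% higher and 26.0% lower over all genes tested. Of the higher ones, EMP1 loses its call in 3 of 15 alternatives and F3 in 1. ANXA1 rose from 74.7 to 127 CPM (log2 fold change 0.73, edgeR adjusted p = 0.00127). ANXA3 had 2, 1 and 3 counts in 1CT and 14, 12 and 15 in 1CT-A (2.16, edgeR adjusted p = 0.00302). It was visible in only 1 library of 1CT and passed the filter on low counts only through 1CT-A, so its fold is uncertain. In the alternatives it had enough counts for the test in 12 of 15. KRT7 fell from 23.5 to 0.743 CPM (-5.01, edgeR adjusted p = 1.74e-09), CLU from 13.2 to 3.26 CPM (-2.05, edgeR adjusted p = 6.27e-06), and AREG, a ligand of the epidermal growth factor receptor, from 8.41 to 1.91 CPM (-2.16, edgeR adjusted p = 8.23e-06). The epithelial keratin gene KRT19 had 20, 27 and 34 counts in 1CT and 0 counts in each 1CT-A library. By the measure used for TERT this is at least 12.4-fold lower, or 10.5-fold without 1CT replicate 3.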
